A study of Mus musculus with 4 samples.

Results

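Expression of 8 genes of the neural crest and the Schwann cell lineage (Sox10, Sox8, Sox2, Pax3, Foxd3, Ednrb, Erbb3 and Fabp7) was compared between mouse mandibles with raised Bmp4 and control mandibles. The members were every probe whose current gene symbol was on this list, which gave 9 of the 29922 probes on the array and 8 of the 16637 named genes. All 8 genes were measured, Sox2 by 2 probes and each of the others by 1. RNA came from the whole mandible of C57BL/6 embryos at stage E11.5 and was read on 1-colour arrays labelled with Cy5, 1 sample per array. The control group was 2 wild-type samples. The other group was 2 samples of a conditional Bmp4 overexpression genotype, given doxycycline for 24 hours to switch the extra Bmp4 on. Which promoter or cell type drove the transgene, and whether controls also received doxycycline, is not stated in the labels, so an effect of the drug and one of Bmp4 cannot be told apart. Whether samples of a group are separate embryos, litters or pools is not stated, and the p-values reflect the scatter of these particular samples, part or all of which may be technical.

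Neural crest cells leave the edge of the neural tube and build most of the skeleton and connective tissue of the jaw, and the crest also gives rise to the glia and part of the neurons of the cranial nerves and to pigment cells. Crest cells that keep Sox10, Foxd3, Ednrb and Erbb3 while they travel along nerves are known as Schwann cell precursors, whereas crest cells that become jaw mesenchyme switch Sox10 off. A mandible of this stage therefore holds many crest-derived mesenchymal cells and a small number of glial precursors along its nerves. BMP4 is a secreted bone morphogenetic protein that takes part both in the induction of the crest and in patterning of the jaw.

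Values are log2 intensities that shared 1 distribution on all arrays, with a lower quartile of 6.79, a median of 7.95 and a maximum of 16. Arrays of the same group correlated across probes with r = 0.993 in each group, and arrays of different groups with r between 0.974 and 0.981. Bmp4 itself, the check of the labels, read 11.96 and 12.07 in the controls and 15.27 and 15.31 in the overexpression samples. All 8 marker genes of the mandibular mesenchyme were measured and 0 of them lay below the lower quartile on all arrays, while Cdh19, which marks Schwann cell precursors, was not analysed here.

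The 8 genes did not move together. Sox8 rose, Pax3, Ednrb and Sox2 fell, and Sox10, Foxd3, Erbb3 and Fabp7 did not pass the test. A gene was called when its brightest probe had an adjusted p under 0.05 in limma, with Benjamini-Hochberg adjustment over all probes. By this rule 4 of the 8 genes were called, beside 16.9% of all named genes (7.39% higher and 9.54% lower). At the threshold the submitters state, a 2-fold change with an unadjusted p under 0.05, Sox8 was higher and Pax3 lower, beside 3.32% of all named genes (1.56% higher and 1.76% lower). The array values of the groups did not overlap for 6 of the 8 genes, beside 63.3% of all named genes. The median log2 fold change of the 8 genes was -0.39, and that of all named genes was 0. The list was drawn up with earlier results of these data known, so these counts describe the genes and do not test them as a set. Leaving out any of the 4 arrays ended all calls, in fits with 1 array in 1 group and 1 residual degree of freedom. Without the first or the second control, limma called 0 of the 8 genes, 6 and 4 of them had an unadjusted p under 0.05, and Sox8, Pax3, Ednrb and Sox2 shared an adjusted p of 0.191 and 0.138. Without the first or the second overexpression sample, limma again called 0, 5 and 4 of the genes had an unadjusted p under 0.05, and these 4 genes shared an adjusted p of 0.17 and 0.155. Their directions did not change in these fits.

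**Figure D1:**
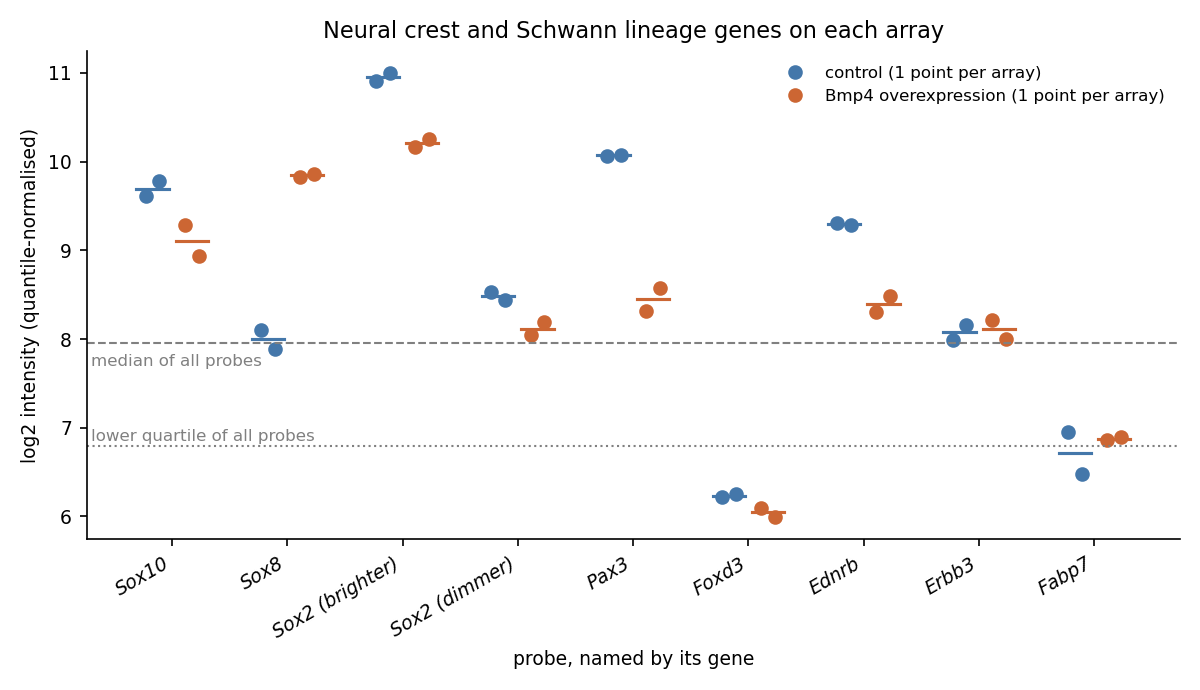
Log2 intensity (vertical axis) of the 9 probes of the 8 genes on each array, with controls in blue, Bmp4 overexpression in orange and a bar at each group mean of 2 arrays. Sox8 is higher and Pax3, Ednrb, Sox10, Foxd3 and both Sox2 probes are lower on both overexpression arrays. Of these, Sox10, Foxd3 and the dimmer Sox2 probe did not pass the test. Foxd3 lies below the lower quartile of all probes on every array, and the groups of Erbb3 and Fabp7 overlap.

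Promoter windows are shown for Sox8, the gene that rose, and for Sox2 and Ednrb, genes that fell. RefSeq windows of the GRCm38.p6 build, from 250 bases before to 50 bases after a transcript start, were matched by symbol for 5 of the 8 genes. The Sox8 window is chr17:25570637-25570936 on the minus strand, the Sox2 window is chr3:34649745-34650044 on the plus strand, and the Ednrb window is chr14:103843652-103843951 on the minus strand, at a start inside the annotated extent of that gene. Each is printed 5′ to 3′ on the strand of the gene, and capitals mark matches to the motifs searched.
Sox8: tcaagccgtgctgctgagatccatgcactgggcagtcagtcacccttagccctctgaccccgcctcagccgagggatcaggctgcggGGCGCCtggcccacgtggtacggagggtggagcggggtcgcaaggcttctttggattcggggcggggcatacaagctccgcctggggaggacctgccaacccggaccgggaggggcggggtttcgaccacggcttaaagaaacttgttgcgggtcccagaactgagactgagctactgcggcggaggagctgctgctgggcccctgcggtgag
Sox2: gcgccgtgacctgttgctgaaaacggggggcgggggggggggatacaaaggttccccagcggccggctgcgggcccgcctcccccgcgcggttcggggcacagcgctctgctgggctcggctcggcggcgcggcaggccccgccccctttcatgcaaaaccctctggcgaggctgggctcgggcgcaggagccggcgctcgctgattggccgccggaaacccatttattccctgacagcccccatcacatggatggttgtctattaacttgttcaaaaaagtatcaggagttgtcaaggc
Ednrb: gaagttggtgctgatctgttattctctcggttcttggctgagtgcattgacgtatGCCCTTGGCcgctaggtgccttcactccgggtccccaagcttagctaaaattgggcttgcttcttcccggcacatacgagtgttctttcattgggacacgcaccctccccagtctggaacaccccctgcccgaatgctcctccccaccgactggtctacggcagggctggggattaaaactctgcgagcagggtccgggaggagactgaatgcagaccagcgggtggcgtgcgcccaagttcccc
The motifs were searched on both strands and were GGCGCC, a GC-rich element known to bind BMP-activated Smads, GTCTAGAC, the palindromic Smad element, ACAAT, the core bound by Sox proteins, and GCCNNNGGC, the palindrome bound by AP-2 factors. Among all 32851 windows of this length, 11.9% held GGCGCC, 0.213% GTCTAGAC, 31% ACAAT and 16.6% GCCNNNGGC. The Sox8 window held 1 match to GGCGCC, at bases 88 to 93, and the Ednrb window held 1 match to GCCNNNGGC, at bases 56 to 64. The Sox2 window held no match to these letters. Of the windows not printed, that of Foxd3 held no match and that of Fabp7 matched ACAAT at bases 53 to 57. The motifs were chosen after the values were seen, and whether any match is bound or bears on the direction of a gene was not tested. The windows of Sox8 and Sox2 both had a G+C content of 66.3% and that of Ednrb 58.7%, against a median of 52.7% over all windows.

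Sox8 encodes a group E Sox transcription factor of the same subgroup as Sox9 and Sox10, and in mice it is active in crest derivatives, glia and several mesenchymal tissues. It read 8.10 and 7.89 in the 2 controls and 9.83 and 9.86 in the 2 overexpression samples. Both overexpression arrays were higher than both control arrays, with differences of 1.73 to 1.97 on the log2 scale. The rise was 3.61-fold, with a log2 fold change of 1.85 ± 0.12 (SE) and a 95% interval of 1.56 to 2.14 (limma, adjusted p = 0.00302). Among all 29922 probes it ranked 50 by size of rise.

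Sox9, the group E gene that directs cartilage formation, rose 1.62-fold (limma, adjusted p = 0.0317), and its log2 intensity was 12.84 ± 0.21 (SD, 2 arrays) in controls and 13.53 ± 0.10 (SD, 2 arrays) in overexpression samples. Sox10, which marks and maintains the glial and pigment lineages of the crest, read 9.61 and 9.78 in the controls and 9.28 and 8.94 in the overexpression samples. Both overexpression arrays were lower than both controls, with differences of -0.84 to -0.33, and the overexpression samples differed from each other by about as much as the nearer of them differed from the nearer control. The log2 fold change of Sox10 was -0.585 ± 0.151 (SE), a 1.5-fold difference with an interval of -0.96 to -0.21, and narrowly missed the threshold (limma, adjusted p = 0.0572). Its adjusted p in limma was 0.0464 without the probes below the median intensity and 0.0407 with robust variance estimates. Fitting genes as the mean of their probes gave 0.0386. In these settings its log2 fold change stayed at -0.585, and only the variance estimate or the number of features adjusted over differed. The remaining planned settings with 2 arrays per group gave an adjusted p of 0.0529 to 0.144. The intervals of Sox8 and Sox10 did not overlap, and the difference between these genes was not tested. In a whole tissue, fewer cells of a type and less RNA per cell cannot be told apart.

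Pax3 encodes a paired-box factor of the early crest and of muscle precursors. Its probe read 10.06 and 10.08 in the controls and 8.32 and 8.58 in the overexpression samples. The controls were nearly equal and both overexpression arrays were lower, with differences of -1.76 to -1.48. This was a 3.07-fold fall with a log2 fold change of -1.62 ± 0.13 (SE) and an interval of -1.94 to -1.31 (limma, adjusted p = 0.00464), and it ranked 69 among all probes by size of fall. Its closest relative Pax7, a gene of crest and muscle satellite cells, was dim, at 6.47 and 6.35 in controls and 6.34 and 6.32 in overexpression samples. Of 8 myoblast marker genes, 1 rose (Des, the muscle intermediate filament gene), 0 fell and 7 did not pass. This list had a share called of 12.5%, beside 16.9% of all named genes. Pax7 and Tcf21 lay below the lower quartile on all arrays. The summed linear intensity of this list was 2307 and 2472 in controls and 2922 and 3254 in overexpression samples. Des carried most of that rise, since the other 7 genes summed to 1487 and 1427 in controls and 1542 and 1647 in overexpression samples. The part of this list in the Pax3 result was not tested.

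Foxd3, a forkhead repressor that keeps crest and glial precursors undifferentiated, was dim on all arrays. It read 6.22 and 6.25 in the controls and 6.10 and 5.99 in the overexpression samples, all below the lower quartile. The log2 fold change was -0.19 ± 0.11 (SE) with an interval of -0.45 to 0.07 (limma, adjusted p = 0.271), which does not show that the gene was unaltered.

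Sox2 encodes a group B Sox factor that holds progenitors in an immature state, among them Schwann cell precursors, and it is also present in oral epithelium. Its brighter probe (mMC023778) read 10.91 and 11.00 in the controls and 10.17 and 10.25 in the overexpression samples. The groups did not overlap, with differences of -0.83 to -0.66, and the fall was 1.68-fold, with a log2 fold change of -0.745 ± 0.106 (SE) and an interval of -1.01 to -0.48 (limma, adjusted p = 0.0153). The dimmer probe (mMC010494) read 8.53 and 8.44 in controls and 8.04 and 8.19 in overexpression samples, also without overlap. Its log2 fold change of -0.37 ± 0.11 (SE) pointed the same way and did not pass (limma, adjusted p = 0.0824). With both probes averaged, the log2 fold change of Sox2 was -0.56 ± 0.10 (SE; limma, adjusted p = 0.0167).

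Of the other group B genes measured, Sox3 fell 1.69-fold (limma, adjusted p = 0.0266), from readings of 8.63 and 8.42 in controls to 7.64 and 7.89. Sox1, Sox14 and Sox21 missed the threshold, with log2 fold changes of -0.18, -0.105 and -0.07, and Sox1 lay below the lower quartile on all arrays. Epithelial marker genes moved both ways, with 62.5% of them called beside 16.9% of all named genes. Of 8 measured, the simple epithelial keratin genes Krt8 and Krt18 and the cadherin gene Cdh1 rose, the basal keratin genes Krt14 and Krt5 fell, and 3 did not pass, with none below the lower quartile on all arrays. Their summed linear intensity was 38501 and 40103 in controls and 31553 and 32881 in overexpression samples, while their mean log2 intensity was 10.96 and 10.86 against 11.08 and 11.18. The lower sum rested on Krt14, and the other 7 genes summed to 11326 and 10571 in controls and 15617 and 16036 in overexpression samples. The part of these shifts in the Sox2 result was not tested.

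**Figure D2:**
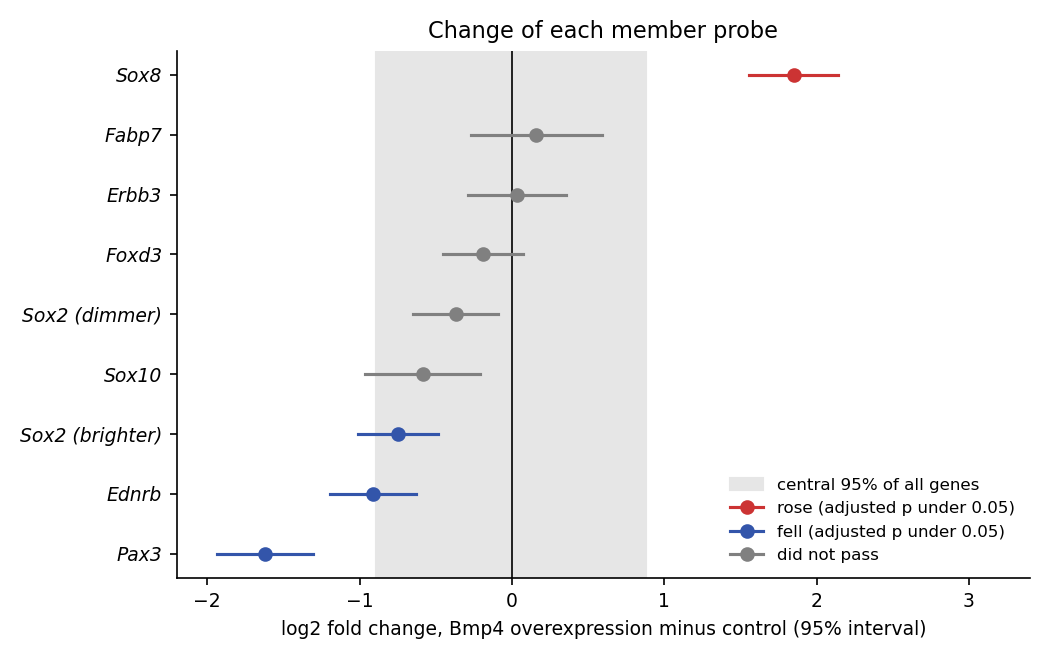
Log2 fold change of each member probe (horizontal axis, Bmp4 overexpression minus control, 2 arrays each) with its 95% interval from limma, beside a grey band that spans the central 95% of all named genes, from -0.90 to 0.88. Sox8 and Pax3 have intervals that lie wholly outside the band, and Ednrb lies at its lower edge.

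Ednrb encodes endothelin receptor B, which crest cells need for migration and for the pigment and enteric lineages. It read 9.31 and 9.29 in the controls and 8.30 and 8.48 in the overexpression samples. Both overexpression arrays were lower, with differences of -1.01 to -0.81, a 1.88-fold fall with a log2 fold change of -0.91 ± 0.11 (SE) and an interval of -1.19 to -0.63 (limma, adjusted p = 0.0118). The receptor thus passed the adjusted threshold and missed the 2-fold threshold of the submitters.

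Other genes of endothelin signalling went both ways. Of 9 measured, 1 rose, 1 fell and 7 did not pass, a share called of 22.2% beside the 16.9% of all named genes. The median log2 fold change was 0.015. The ligand genes Edn3, which acts through this receptor, and Edn1, the main endothelin of the jaw, had log2 fold changes of -0.26 and 0.17, and Edn2 had -0.46 (limma, adjusted p = 0.0619). Mef2c, a MADS-box factor downstream of endothelin in the jaw, rose by 0.80 on the log2 scale, Gna11, a G protein subunit gene, fell by 0.645, and Ece1, which encodes the enzyme that activates endothelins, missed the threshold with 0.35. The other receptor gene, Ednra, was not analysed here. Endothelial cells are also known to express Ednrb. Among 5 endothelial marker genes the share called was 20%, beside 16.9% of all named genes. Of these 5, Cldn5, a tight junction gene, rose, 0 fell and 4 did not pass, with none below the lower quartile on all arrays. Their summed linear intensity was 6082 and 5904 in controls and 7230 and 7556 in overexpression samples, and its part in the Ednrb result was not tested.

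Most genes of the pigment cell branch, in which Ednrb, Pax3 and Sox10 act, did not pass. Of 14 measured, 2 rose, 0 fell and 12 did not pass, a share called of 14.3% beside the 16.9% of all named genes. Their median log2 fold change was 0.16, and 5 of them lay below the lower quartile on all arrays. The melanocortin receptor gene Mc1r read 8.41 and 8.61 in controls and 9.14 and 9.25 in overexpression samples, and the transporter gene Slc45a2 read 7.48 and 7.80 against 8.39 and 8.41. Oca2 and Gpr143, genes of the pigment granule, had log2 fold changes of 0.63 and -0.40 (limma, adjusted p = 0.0584 and 0.0631). Of the pigment precursor markers, Mitf, Tyr and Tyrp1 lay below the lower quartile on all arrays, and Dct read 6.67 to 6.84. The other markers of these cells were brighter and did not pass, with Kit at 9.76 to 10.07, Mlana at 7.55 to 8.22 and Pmel at 7.41 to 7.52.

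Erbb3 encodes the neuregulin receptor on which Schwann cell precursors depend for survival and for migration along axons. It read 7.99 and 8.16 in the controls and 8.22 and 8.0 in the overexpression samples. The groups overlapped, the log2 fold change was 0.035 ± 0.130 (SE), and the interval of -0.29 to 0.36 spans ratios of 0.819 to 1.28 (limma, adjusted p = 0.882). These arrays therefore leave room for a change of that size in either direction.

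Erbb2, the partner with which ERBB3 signals, had a log2 fold change of -0.12 and Erbb4, another neuregulin receptor gene, one of -0.09, both short of the threshold. The neuregulin genes Nrg2 and Nrg4 had 0.155 and -0.175, and Nrg3 had -0.06 at its brightest probe, while its other probe fell by 0.625 (limma, adjusted p = 0.0234). Erbb4 and Nrg4 lay below the lower quartile on all arrays, which limits what could be seen for them. In this list of 13 measured genes, 1 rose, 2 fell and 10 did not pass, with a median log2 fold change of -0.09. The share called was 23.1%, beside 16.9% of all named genes. The falls were Egfr, the epidermal growth factor receptor gene, and Lrig1, an inhibitor of ErbB receptors, at 2.39-fold and 2.14-fold lower. The rise was Hbegf, a ligand of EGFR, at 1.66-fold higher, and the ligand gene Tgfa missed the threshold with -0.165.

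Fabp7 encodes a brain-type fatty acid binding protein that marks radial glia and Schwann cell precursors. It read 6.95 and 6.48 in the controls and 6.86 and 6.89 in the overexpression samples, around the lower quartile. The overexpression values lay between those of the controls, which differed more from each other than the groups did (log2 fold change 0.16 ± 0.17, SE; limma, adjusted p = 0.570). The interval of -0.27 to 0.59 spans ratios of 0.83 to 1.5. Of 9 other measured binding proteins of this family for fatty acids and retinoids, 1 rose, 1 fell and 7 did not pass. The share called was 22.2%, beside 16.9% of all named genes. Crabp2, a retinoic acid binding protein gene, fell 2.37-fold and Fabp3, the heart-type gene, rose 1.46-fold. Fabp5 had -0.55 at its brightest probe, which did not pass, and its other probe fell by 0.94 (limma, adjusted p = 0.00908). Crabp1, a related retinoic acid binding protein gene, missed the threshold with -0.275.

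Across the wider Schwann cell and glial list, changes went both ways. Of 27 measured genes, 5 rose, 3 fell and 19 did not pass, a share called of 29.6% beside the 16.9% of all named genes, and the median log2 fold change was -0.03. Pmp22, a gene of peripheral myelin that is also expressed in many mesenchymal cells, rose 2.28-fold, from readings of 12.47 and 12.65 to 13.60 and 13.90. Dhh, a Hedgehog ligand made by Schwann cells, rose 1.79-fold at its brightest probe, while its other probe missed the threshold with -0.125. Cdh2, the N-cadherin gene, fell at all 3 of its probes, with log2 fold changes of -0.82, -0.76 and -0.92. Adgrg6, an adhesion receptor gene needed for myelination, fell by 0.735 at its brightest probe, and its other probes, with -0.475 and -0.025, missed the threshold. Of the 10 genes listed as Schwann cell precursor and satellite glia markers, which include Sox10, Foxd3, Erbb3 and Fabp7, 7 were measured. Their share called was 14.3%, beside 16.9% of all named genes. Among these 7, Gfra3, a coreceptor gene for artemin, rose 1.68-fold (limma, adjusted p = 0.0453), 0 fell and 6 did not pass. Ngfr, the low-affinity neurotrophin receptor gene, had a log2 fold change of -0.285. The 7 genes had a summed linear intensity of 4065 and 4506 in controls and 3880 and 3700 in overexpression samples. Their mean log2 intensity overlapped, at 8.22 and 8.31 against 8.32 and 8.14. Without Ngfr, the other 6 genes summed to 1696 and 1895 against 1929 and 1565, which also overlap.

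**Figure D3:**
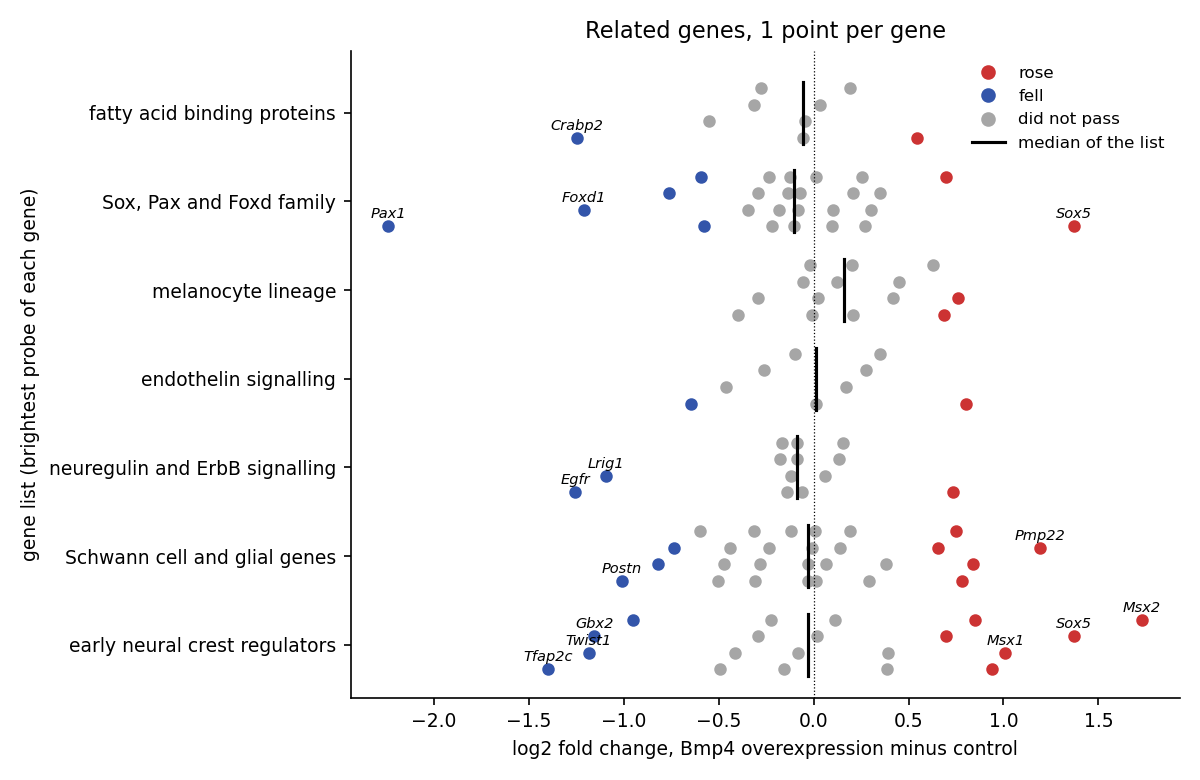
Log2 fold change (horizontal axis, Bmp4 overexpression minus control) of each measured gene in 7 related lists, 1 point per gene through its brightest probe, coloured by its call in limma, with a black line at the median of each list and names on called genes of at least 2-fold. Called genes stand on both sides of 0 in each list but the melanocyte lineage, and the list medians lie between -0.105 and 0.16.

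The early regulators of the crest also changed in both directions. Of 20 measured, 6 rose, 4 fell and 10 did not pass, a share called of 50% beside the 16.9% of all named genes. The median log2 fold change was -0.03. No test compared this list with the others. Msx2, a homeobox gene known to respond to BMP, rose 3.32-fold and Sox5, a group D Sox gene of crest and cartilage, rose 2.58-fold, with its other 3 probes at log2 fold changes of 1.11, 0.94 and 1.54. Twist1, a basic helix-loop-helix gene of crest mesenchyme, fell 2.27-fold. Tfap2c, an AP-2 factor gene of ectoderm and crest, fell 2.64-fold at its brightest probe, but its other 3 probes missed the threshold with 0.24, 0.435 and 0.25, so its direction is uncertain. In the wider Sox, Pax and Foxd family, 2 of 25 measured genes rose (Sox5 and Sox9), 5 fell and 18 did not pass. The share called was 28%, beside the same 16.9%. Pax1, a gene of the pharyngeal pouches and the axial skeleton, had the largest fall of this list, at 4.72-fold, from readings of 9.02 and 8.56 to 6.67 and 6.43, below the lower quartile. Foxd1, a forkhead gene of mesenchyme, fell 2.31-fold. Sox11, a group C Sox gene near the top of the scale, fell 1.51-fold at its brightest probe. Another of its probes fell by 0.525 (limma, adjusted p = 0.0335), and the other 2 missed the threshold with 0.23 and 0.50. Over all 7 lists, without the 8 members, 16 of 113 measured genes rose, 16 fell and 81 did not pass. That is a share called of 28.3% beside the 16.9% of all named genes. All 113 had a median log2 fold change of -0.045.

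Markers of other cells in the mandible moved with the groups to differing extents. Shares called were 20% in the sensory neuron list, 33.3% in the macrophage list, 25% in the erythroid list and 37.5% in the mesenchymal list. Over all named genes the share was 16.9%. Of 10 measured sensory neuron markers, Isl1, a LIM-homeodomain gene of neurons and of distal arch tissue, rose 7.89-fold, Nefm, a neurofilament gene, fell 1.47-fold, and 8 did not pass, among them Tubb3 and Neurog1 with log2 fold changes of 0.185 and 0.50. The summed linear intensity of this list was 4397 and 4403 in controls and 9875 and 9852 in overexpression samples. Isl1 carried most of that rise, since the other 9 genes summed to 3744 and 3773 in controls and 4867 and 4739 in overexpression samples. The neuronal genes Pou4f1 and Nefl lay below the lower quartile on all arrays. Of 6 macrophage markers, Adgre1 and C1qa rose and 4 did not pass, with summed intensities of 1611 and 1664 in controls and 2414 and 2405 in overexpression samples. Of 4 erythroid markers, Alas2, an enzyme gene of haem synthesis, fell 1.5-fold, and the embryonic globin genes read close to the maximum of 16 in both groups. Of the 8 mesenchymal markers, Prrx2 and Msx1 rose, Twist1 fell and 5 did not pass, Prrx1 and Pdgfra among them. Their summed intensity was 66094 and 65792 in controls and 72165 and 72921 in overexpression samples, and without Msx1 it was 50378 and 49856 against 40513 and 40827, so the direction of the sum turned with that gene. These sums without the gene that differed most in linear intensity were chosen after seeing the data. Whether any of these shifts had a part in the changes of the 8 genes was not tested.

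**Figure D4:**
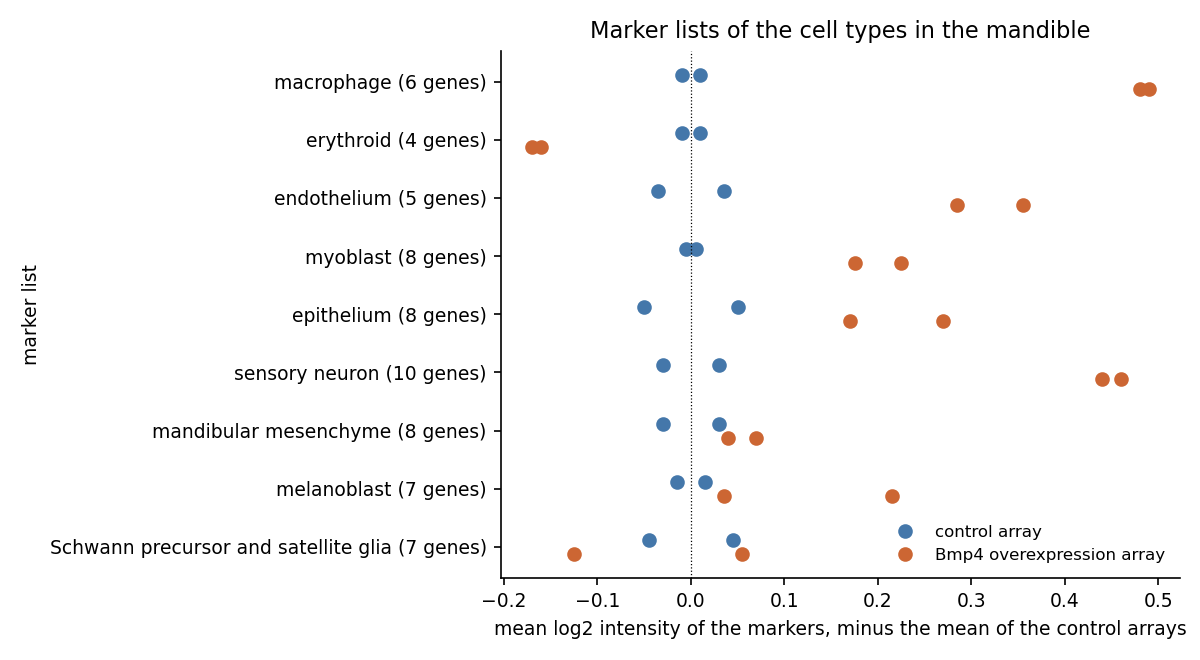
Mean log2 intensity of each marker list on each array (horizontal axis, minus the mean of the control arrays), with controls in blue and Bmp4 overexpression in orange. The glial precursor list overlaps between groups, the erythroid list is lower on both overexpression arrays, and the other 7 lists are higher on both. The rise is small in the mesenchyme. In the melanoblast (pigment precursor) list the second overexpression array read 7.32, against 7.27 and 7.30 in the controls.

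The genes whose array values ran closest to those of each called member were found by the root mean square distance of the 4 values, each centred on the mean of its gene. For Sox8 these were Col9a2, a collagen IX chain gene, and Bmf, a gene of the Bcl2 family, at distances of 0.0311 and 0.0604. Pou3f3, a POU factor gene, and Mmd2 lay closest to Pax3, at 0.0164 and 0.046. For Sox2 the nearest were Rangap1 and Tbc1d22b, at 0.005 and 0.013, and for Ednrb they were Trappc9 and Chmp4b, at 0.0158 and 0.0179. With 4 arrays in 2 groups, such a distance depends on the size of the group difference and says nothing of shared function.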

How the data were processed

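Per the labels' protocols, total RNA was column-purified, and amplified RNA carrying aminoallyl groups was joined to the Cy5 dye. The deposited values are log2 intensities with 2 decimals, 1 per probe and array, and their sorted values were identical in the 4 columns (largest difference 0), so the authors had quantile-normalised them. This step hides any shift shared by most genes. The labels name no scanner, background correction or probe filter. Of 29922 probes, 21020 had 1 symbol, 0 several and 8902 none in the platform annotation, and 3410 symbols were updated through RefSeq synonyms. Probes were fitted with limma 3.58.1 in R 4.3.3 (lmFit, eBayes, two-sided, no covariate or filter), with Benjamini-Hochberg adjustment over all probes, and 2 residual degrees of freedom beside a prior of 3.59. The fit was tested on simulated data. With 2 arrays a group, the smallest p of an exact permutation test is 0.333, so none was run. A gene with several probes was read through the brightest. Groups follow the sample titles. The members, gene lists, motifs and naming rule were chosen with earlier results of these data known. Named were all members and the 2 nearest genes of each called member. Each related list added up to 4 genes of smallest p and the relatives or ligand and receptor partners of members. For each cell type the 3 brightest measured markers were planned. In the myoblast, endothelium, epithelium and macrophage lists some of these were left unnamed. Further genes that make up a small count, or were dim, were named after their values were seen. Same-numbered arrays deviated from their group means with a correlation of -0.0711 across probes, so the numbers were not taken to pair samples. The number of arrays limits the precision. Alternatives were another scaling, a pseudocount of 50, filters on dim probes, other variance priors, a replicate block, each array left out, and gene means.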

Additional observations from a re-analysis of the deposited data

How the results depend on the processing

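The 4 called members (Sox8, Pax3, Ednrb and Sox2) were also called when quantile normalisation was repeated, after median centring, with 50 added to the linear value, without probes below the lower quartile or the median, with a trended or robust variance prior, and as gene means. Between 4 and 5 members were called there, and the added member was Sox10. With the replicate block, which leaves 1 residual degree of freedom, limma called 0 members and 0 of the 113 related genes, while 5 members and 48 related genes had an unadjusted p under 0.05, and the lowest adjusted p of any probe was 0.0745. Leaving out each array in turn gave 0 to 0 members and 0 to 0 related genes called, with the lone array assumed to vary like the other group, and the lowest adjusted p of any probe was then 0.138 to 0.191. The fewer samples and degrees of freedom are part of these settings. Log2 fold changes then ranged from 1.75 to 1.96 for Sox8, -1.75 to -1.49 for Pax3, -1.0 to -0.82 for Ednrb, -0.79 to -0.70 for the brighter Sox2 probe, -0.755 to -0.415 for Sox10, -0.075 to 0.145 for Erbb3 and -0.075 to 0.395 for Fabp7. Without Bmp4 overexpression replicate 2, Ednrb reached the 2-fold threshold, so 2 to 3 members passed it. Erbb3 turned to -0.05 when control replicate 1 was left out and to -0.075 when Bmp4 overexpression replicate 1 was, and Fabp7 to -0.075 without control replicate 2, and the cause was not tested. Signals below the lower quartile, as for Foxd3, limit what could be seen.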
